A study of Mus musculus with 2 samples.

Results

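The genes described here are 8 transcription factors known from the connective tissue progenitors of the developing diaphragm and of skeletal muscle: Wt1, Gata4, Gata6, Tcf21, Tcf4, Nr2f1, Nr2f2 and Osr1. They were taken as a list from the biology of the pleuroperitoneal folds, with earlier results of these data known. They are 8 of the 27998 genes in the count tables. All 8 had at least 1 transcript in the libraries. Their transcripts were summed over cell classes of mouse quadriceps, a limb muscle, and diaphragm, the respiratory muscle, with most attention to fibro-adipogenic progenitors (FAPs), the connective tissue progenitors of muscle.

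The study sampled mononuclear cells of C57BL/6J mice with no genotype, treatment or age given in the labels. Quadriceps and diaphragm were digested with collagenase B and dispase II, cells were collected over a density step, and viable cells were sorted on light scatter alone. From 10 mice in all, the cells of several muscles of one kind were combined, and each kind gave 1 droplet library in which every captured transcript carries a unique molecular identifier (UMI). There was thus 1 library per tissue and no replicate, so tissue and library cannot be told apart, no test was possible, and every interval is a 95% counting interval.

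The pleuroperitoneal folds are transient embryonic tissues whose cells spread over the future diaphragm and become its muscle connective tissue and central tendon. Wt1, a zinc finger protein, marks these folds and the mesothelium that lines body cavities, and loss of Wt1, Gata4 or the COUP-TF Nr2f2 in this lineage can leave holes in the diaphragm. In limb muscle, Osr1 and the Wnt effector Tcf7l2 are known for the connective tissue fibroblasts and progenitors between the fibers. The protein of Tcf7l2 is often called TCF4, while the gene symbol Tcf4 in the tables (ENSMUSG00000053477) belongs to the E protein E2-2, a basic helix-loop-helix partner. Both genes were therefore followed.

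Tcf21, a helix-loop-helix factor of mesenchyme, was 1 of 3 members with transcripts in diaphragm and none in quadriceps. Its promoter is shown because, of these 3, only Tcf21 had a window in the RefSeq table. Nr2f1 and Nr2f2 also had windows, which are not shown. GATA motifs were marked because GATA factors are among the members, and whether they act on Tcf21 was not tested. The sequence is from RefSeq for GRCm38.p6 (chr10:22820163-22820393, minus strand) and runs up to the first 12 bases of the GENCODE transcript. Capitals mark a GATA motif, searched on both strands as AGATAA or TGATAA, and also with the last A replaced by G.
Tcf21: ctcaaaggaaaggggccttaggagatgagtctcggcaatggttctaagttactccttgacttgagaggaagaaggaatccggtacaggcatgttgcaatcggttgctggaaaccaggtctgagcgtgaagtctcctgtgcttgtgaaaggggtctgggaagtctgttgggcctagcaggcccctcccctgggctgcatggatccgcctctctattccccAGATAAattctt
The 250 bases before the RefSeq start of Tcf21 held 1 match, which began 31 bases before that start and at the first base of the GENCODE transcript. Of all 32851 promoter windows of 250 bases in the RefSeq table, 26.5% held at least 1 such match, so the match is a description and is common.

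All 8 genes were found once in the tables, and their positions on the GRCm38 build were read from GENCODE M21. Wt1 lies on chromosome 2 (105126529 to 105173616, plus strand), Gata4 on chromosome 14 (63198922 to 63271692, minus strand) and Tcf21 on chromosome 10 (22817281 to 22820174, minus strand). Nr2f1 lies on chromosome 13 (78188973 to 78199757, minus strand), Nr2f2 on chromosome 7 (70351944 to 70366735, minus strand) and Osr1 on chromosome 12 (9570116 to 9581500, plus strand). Gata6 and Tcf4 are both on chromosome 18, at 11052064 to 11085635 and at 69343356 to 69689079 of the plus strand. Gata6 overlaps the minus-strand gene 1010001N08Rik (46 UMIs in FAPs of both tissues) and Nr2f1 overlaps the plus-strand gene A830082K12Rik (254 UMIs). Whether the counting used the strand is not given in the sources used here, so a share of reads between these partners is uncertain.

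In all there were 5159 quadriceps barcodes (50854519 UMIs) and 2499 diaphragm barcodes (28545242 UMIs), at a median of 9719 and 11853 UMIs per barcode. FAPs were taken as barcodes with at least 1 UMI of Pdgfra, a growth factor receptor, and at least 50 UMIs of Dcn, the matrix proteoglycan decorin. This gate held 2339 quadriceps barcodes (45.3% of the library, 26559263 UMIs) and 2010 diaphragm barcodes (80.4%, 25965824 UMIs). All 9 FAP markers checked had a UMI in at least 50% of the gated cells of each tissue, and the name FAP was kept. Pdgfra and Dcn are among the 9, and the gate itself fixed their share. Just inside the gate, at 50 to 59 Dcn UMIs, Wt1 was at 252 CPM (counts per 1000000 UMIs of the cells) in 10 diaphragm barcodes and 0 UMIs in 27 quadriceps barcodes, and just outside it, at 40 to 49, at 288 CPM in 9 and 0 UMIs in 33. Over 5% of UMIs were mitochondrial in 570 quadriceps and 441 diaphragm FAPs. Smooth muscle transcripts were uneven between the gated sets: the 6 smooth muscle markers summed to 2077 CPM in quadriceps and 53.6 CPM in diaphragm, none was at 0, and 567 quadriceps FAPs against 8 diaphragm FAPs held at least 3 of the 6. The libraries shared 5 barcode sequences, 3 of them FAPs in each library, with 0 Wt1 UMIs in the quadriceps copies and 1 in the diaphragm copies.

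The first comparison asked how the 8 factors differ between FAPs of the limb and of the respiratory muscle. Wt1 and both GATA factors, Gata4 and Gata6, were far higher in diaphragm FAPs, while Tcf4, Nr2f2 and Osr1 lay within 1.2-fold between the tissues and Nr2f1 just under 2-fold. A minimum of 10 CPM in the tissue with the higher level left 7 members, and of these 3 were at least 2-fold higher in diaphragm and 0 in quadriceps. Of all 8727 genes tested in the same way, 2.75% were at least 2-fold higher in diaphragm and 3.46% in quadriceps, 6.21% in all. Wt1, Gata4 and Gata6 reached the minimum in diaphragm alone, and the list was chosen with earlier results of these data known. The shares therefore describe the list and do not test it. The median log2 difference, diaphragm over quadriceps with 1 CPM added, was 0.87 over the 7 members, the value of Nr2f1, and -0.11 over all genes tested.

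Wt1 had 0 UMIs in the 2339 quadriceps FAPs and 2411 UMIs in the 2010 diaphragm FAPs, a level of 92.9 CPM (89.2 to 96.6). A count of 0 at the quadriceps depth allows up to 0.113 CPM, so the level in diaphragm FAPs was at least 822-fold higher. Of all genes tested, Wt1 ranked 1 by this difference. Gata4, a zinc finger factor of heart and foregut mesoderm, had 0 UMIs in quadriceps FAPs and 425 in diaphragm FAPs, which is 16.4 CPM (14.8 to 18.0) and at least 145-fold higher, at rank 7. Wt1 and Gata4 were the 2 genes of the 8727 (0.0229%) with at least 10 CPM in diaphragm FAPs and no UMI in quadriceps FAPs.

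Tcf21 also had 0 UMIs in quadriceps FAPs, and 56 in diaphragm FAPs. Its level of 2.16 CPM (1.63 to 2.80) was at least 19.1-fold higher than the limit in quadriceps, but lay under the minimum of 10 CPM, so Tcf21 is not among the 7 members counted above. The zeros were not confined to FAPs: the whole quadriceps library, at its full depth, held 0 UMIs of Wt1, of Gata4 and of Tcf21, which allows up to 0.0590 CPM each. The whole diaphragm library held 2575, 445 and 58. Wt1os, the long noncoding RNA transcribed away from the Wt1 promoter, went the same way, with 0 UMIs in quadriceps FAPs and 79 in diaphragm FAPs.

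Gata6, the closest GATA relative in the list, was present in both tissues. It had 108 UMIs in quadriceps FAPs (4.07 CPM, 3.34 to 4.91) and 1110 in diaphragm FAPs (42.7 CPM, 40.3 to 45.3). The ratio was 10.5 (8.62 to 12.9), at rank 21 of the genes tested, and the intervals of the tissues did not overlap.

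The COUP-TF nuclear receptors did not share this difference. Nr2f1 had 208 UMIs in quadriceps FAPs (7.83 CPM, 6.80 to 8.97) and 393 in diaphragm FAPs (15.1 CPM, 13.7 to 16.7), a ratio of 1.93 (1.63 to 2.30) that stayed under the 2-fold limit. Nr2f2 had 1179 UMIs in quadriceps FAPs (44.4 CPM, 41.9 to 47.0) and 974 in diaphragm FAPs (37.5 CPM, 35.2 to 39.9), a ratio of 0.845 (0.775 to 0.921). Nr2f2 is high in smooth muscle, as given below, and among FAPs with under 3 smooth muscle markers its level was 37.9 CPM (35.2 to 40.8) in quadriceps and 37.5 CPM (35.1 to 39.9) in diaphragm. In the 567 quadriceps FAPs with at least 3 of these markers, Nr2f2 was at 60.5 CPM (55.1 to 66.2).

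Osr1, the limb connective tissue factor, was nearly level between the tissues. It had 2766 UMIs in quadriceps FAPs (104 CPM, 100.3 to 108) and 2541 in diaphragm FAPs (97.9 CPM, 94.1 to 102), a ratio of 0.940 (0.890 to 0.992). Tcf4 had 17228 UMIs in quadriceps FAPs (649 CPM, 639 to 658) and 18475 in diaphragm FAPs (712 CPM, 701 to 722), a ratio of 1.10 (1.07 to 1.12). Tcf7l2, the gene of the Wnt effector, went from 137 CPM (132 to 141) to 184 CPM (179 to 189), a ratio of 1.35 (1.29 to 1.41), also under the limit. The small differences of Nr2f2 and Osr1 changed side in some settings: Nr2f2 was higher in diaphragm in 2 of 15 alternatives and Osr1 in 2 of 15.

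**Figure D1:**
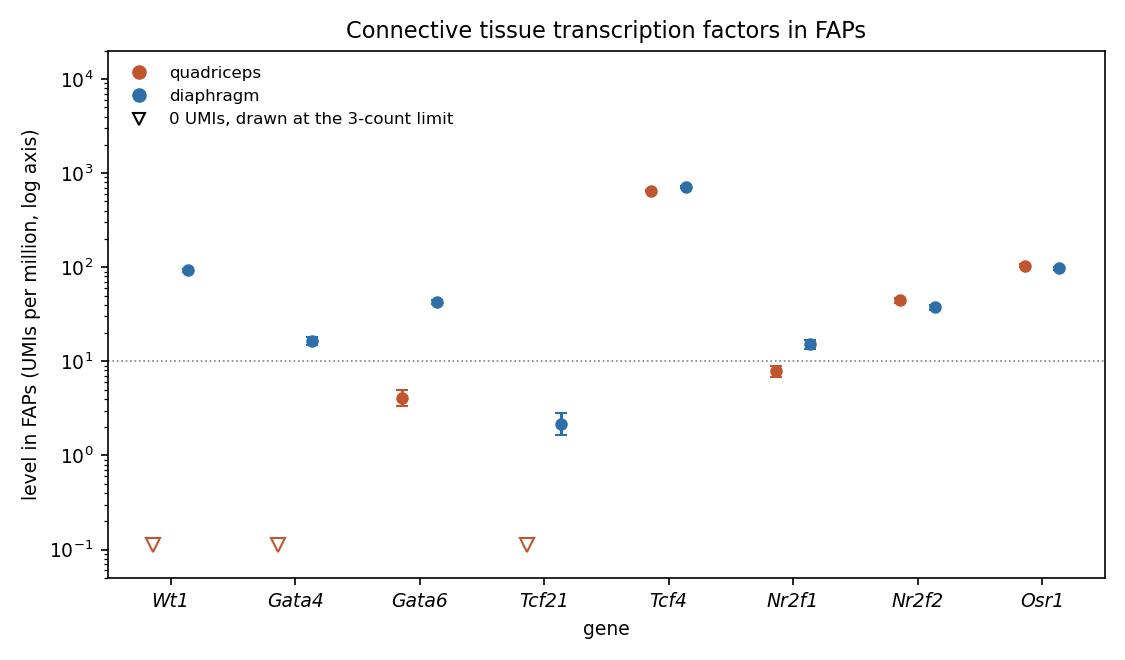
Level of each of the 8 transcription factors in FAPs, in CPM on a log axis, with quadriceps in orange and diaphragm in blue; bars are 95% Poisson intervals, open triangles mark 0 UMIs drawn at the limit that 3 counts allow, and the dotted line is the 10 CPM minimum. Wt1, Gata4 and Tcf21 stand at the limit of 0.113 CPM in quadriceps, Gata6 differs 10.5-fold, and Tcf4, Nr2f2 and Osr1 lie close together.

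The share of cells with a transcript followed the levels. In diaphragm, 47.9% of FAPs had a Wt1 UMI, 32.9% a Gata6 UMI, 18.7% a Gata4 UMI and 1.44% a Tcf21 UMI. T cell-like cells of the same library, which should lack these genes, had a Wt1 UMI in 0 of 85 cells (up to 3.53%), and a Gata4 and a Gata6 UMI in 1 cell each (1.18%), at a median of 5404 UMIs against 12575.5 in FAPs. With every cell thinned to 1000 UMIs, the shares in diaphragm FAPs were 9.20% (7.98 to 10.6) for Wt1, 3.43% (2.68 to 4.32) for Gata6, 2.39% (1.77 to 3.15) for Gata4 and 0.149% (0.0308 to 0.436) for Tcf21, and 0 of 85 T cell-like cells had any of the 4. In quadriceps FAPs the unthinned share with a Gata6 UMI was 3.81%, and the thinned share 0.257% (0.0942 to 0.557).

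Transcripts of Wt1 were not held by a few cells. The highest count in any diaphragm FAP was 23 Wt1 UMIs, and the 10% of FAPs with the most held 49.7% of them. For Gata6 the highest count was 28 and that share 54.2%, and for Gata4 the highest was 5 and the share 59.1%. Tcf21 was the exception, with its 56 UMIs in 29 cells and up to 9 in a cell.

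Osr1 was detected widely and alike in FAPs of both tissues. It had a UMI in 52.5% of quadriceps and 57.6% of diaphragm FAPs, and in 9.36% and 9.85% after thinning. Tcf4 had one in 97.6% and 99.1%, and in 47.1% and 47.3% after thinning. Nr2f2 was detected in 26.9% and 28.9% of FAPs, which became 5.47% (4.59 to 6.47) and 3.58% (2.81 to 4.49) after thinning.

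Wt1 and Gata6 also mark mesothelium, so mesothelial transcripts were counted beside them. With 8 mesothelial markers (Msln, Upk3b, Upk1b, Lrrn4, Krt19, Krt8, Krt18, Krt7), 17 diaphragm barcodes and 0 quadriceps barcodes held at least 3. In these 17, Wt1 was at 451 CPM (356 to 565) and Gata6 at 333 CPM (251 to 432). Gata4 was at 23.8 CPM (6.47 to 60.8), from 4 UMIs. Osr1 was at 273 CPM (200 to 364), against 97.9 CPM (94.1 to 102) in all diaphragm FAPs. Only 2 of the 17 passed the FAP gate, and they carried 24 of the 2411 Wt1 UMIs and 35 of the 1110 Gata6 UMIs. In the 1967 diaphragm FAPs with no UMI of any of the 8 markers, Wt1 was at 93.1 CPM (89.3 to 96.9), Gata4 at 16.2 CPM and Gata6 at 41.9 CPM. These levels were as high as in all 2010 diaphragm FAPs within the intervals, but that set is mostly these same cells. The 8 markers summed to 9.07 CPM in quadriceps FAPs, with Upk1b, Lrrn4, Krt8 and Krt18 at 0. In diaphragm FAPs they summed to 22.1 CPM, with none at 0, but to 2.05 CPM in the 2008 with under 3 of the markers. Krt19 had 177 UMIs in quadriceps FAPs and 34 in diaphragm FAPs.

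The second comparison asked which cell classes carry the 8 factors. Among the named quadriceps classes Osr1 was close to a FAP gene, Tcf4 was broad, and Nr2f2 was highest in smooth muscle and lymphatic endothelium. Wt1, Gata4 and Tcf21 were absent from every quadriceps class at this depth. Quadriceps held no barcodes with at least 3 mesothelial markers, and in those of diaphragm Osr1 was above its level in FAPs, as given above. Classes other than FAPs came from clusters of both libraries, named from marker lists. In quadriceps 8 named classes had at least 50 barcodes, but in diaphragm only T cell-like cells did. The order of classes can thus be read in quadriceps alone. In diaphragm, 92 FAP-like barcodes outside the gate had Wt1 at 119 CPM (92.1 to 151) and Gata6 at 28.9 CPM (16.5 to 46.9). The 142 barcodes of unnamed clusters had them at 102 CPM (82.3 to 125) and 43.9 CPM (31.3 to 59.7). Neither gene was thus confined to gated FAPs.

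Among these quadriceps classes 2 of the 8 members, Gata6 and Osr1, were highest in FAPs. Osr1 stood at 104 CPM in FAPs and at 4.03 CPM (1.10 to 10.3) in satellite cell-like cells, the next in order, with overlapping intervals among all classes below FAPs and 0 UMIs in macrophage monocyte-like, B, T and NK cell-like cells. The clusters led by FAP markers but outside the gate, 243 barcodes, had Osr1 at 125 CPM (107 to 144). Gata6, at 4.07 CPM in FAPs, had 1 UMI in satellite cell-like and 1 in smooth muscle-like cells and 0 in the other 6 classes, and its interval (3.34 to 4.91) overlapped those of all these classes except smooth muscle-like cells (0.00157 to 0.345). The gate left out 243 barcodes of clusters led by FAP markers, where Gata6 was at 11.7 CPM (6.83 to 18.8). A smaller class of 38 endothelial-like cells had 4 Gata6 UMIs (35.8 CPM, 9.75 to 91.6).

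Among classes with at least 50 barcodes Tcf4 was highest in tenocyte-like cells, at 796 CPM (725 to 873), followed by FAPs (649 CPM) and satellite cell-like cells (599 CPM, 552 to 649), whose intervals overlapped. It fell through Schwann cell-like (326 CPM), B cell-like (221 CPM), macrophage monocyte-like (150 CPM), NK cell-like (106 CPM) and smooth muscle-like cells (86.3 CPM) to T cell-like cells, at 6.08 CPM (1.66 to 15.6). In diaphragm, T cell-like cells had Tcf4 at 13.0 CPM (4.76 to 28.2) and 20 satellite cell-like cells at 621 CPM (482 to 789). The 19 lymphatic endothelial-like cells of quadriceps had Tcf4 at 919.5 CPM (713 to 1168), with an interval that overlapped that of tenocyte-like cells. The low level of this E protein in T cells was thus seen in both libraries.

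Nr2f2, known for venous, lymphatic and mesenchymal cells, was at 279 CPM (271 to 287) in quadriceps smooth muscle-like cells, above all other named classes with at least 50 barcodes. The 344 barcodes of unnamed quadriceps clusters were at 322 CPM (297 to 349). The 19 lymphatic endothelial-like cells of quadriceps had 892 CPM (688 to 1137) and the 9 of diaphragm 801 CPM (513 to 1192). Schwann cell-like (74.4 CPM, 56.4 to 96.4), tenocyte-like (66.1 CPM, 46.8 to 90.7) and FAP levels (44.4 CPM) followed, with overlapping intervals between neighbours, and B and T cell-like cells had 0 UMIs. Nr2f1 was low. Among the named quadriceps classes with at least 50 barcodes it was highest in the same smooth muscle-like cells, at 11.2 CPM (9.59 to 12.9). That interval lay above the one of quadriceps FAPs (7.83 CPM, 6.80 to 8.97) but overlapped that of Schwann cell-like cells (9.14 CPM, 3.67 to 18.8). Barcodes of unnamed quadriceps clusters had Nr2f1 at 16.6 CPM (11.3 to 23.5), and diaphragm FAPs at 15.1 CPM (13.7 to 16.7).

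**Figure D2:**
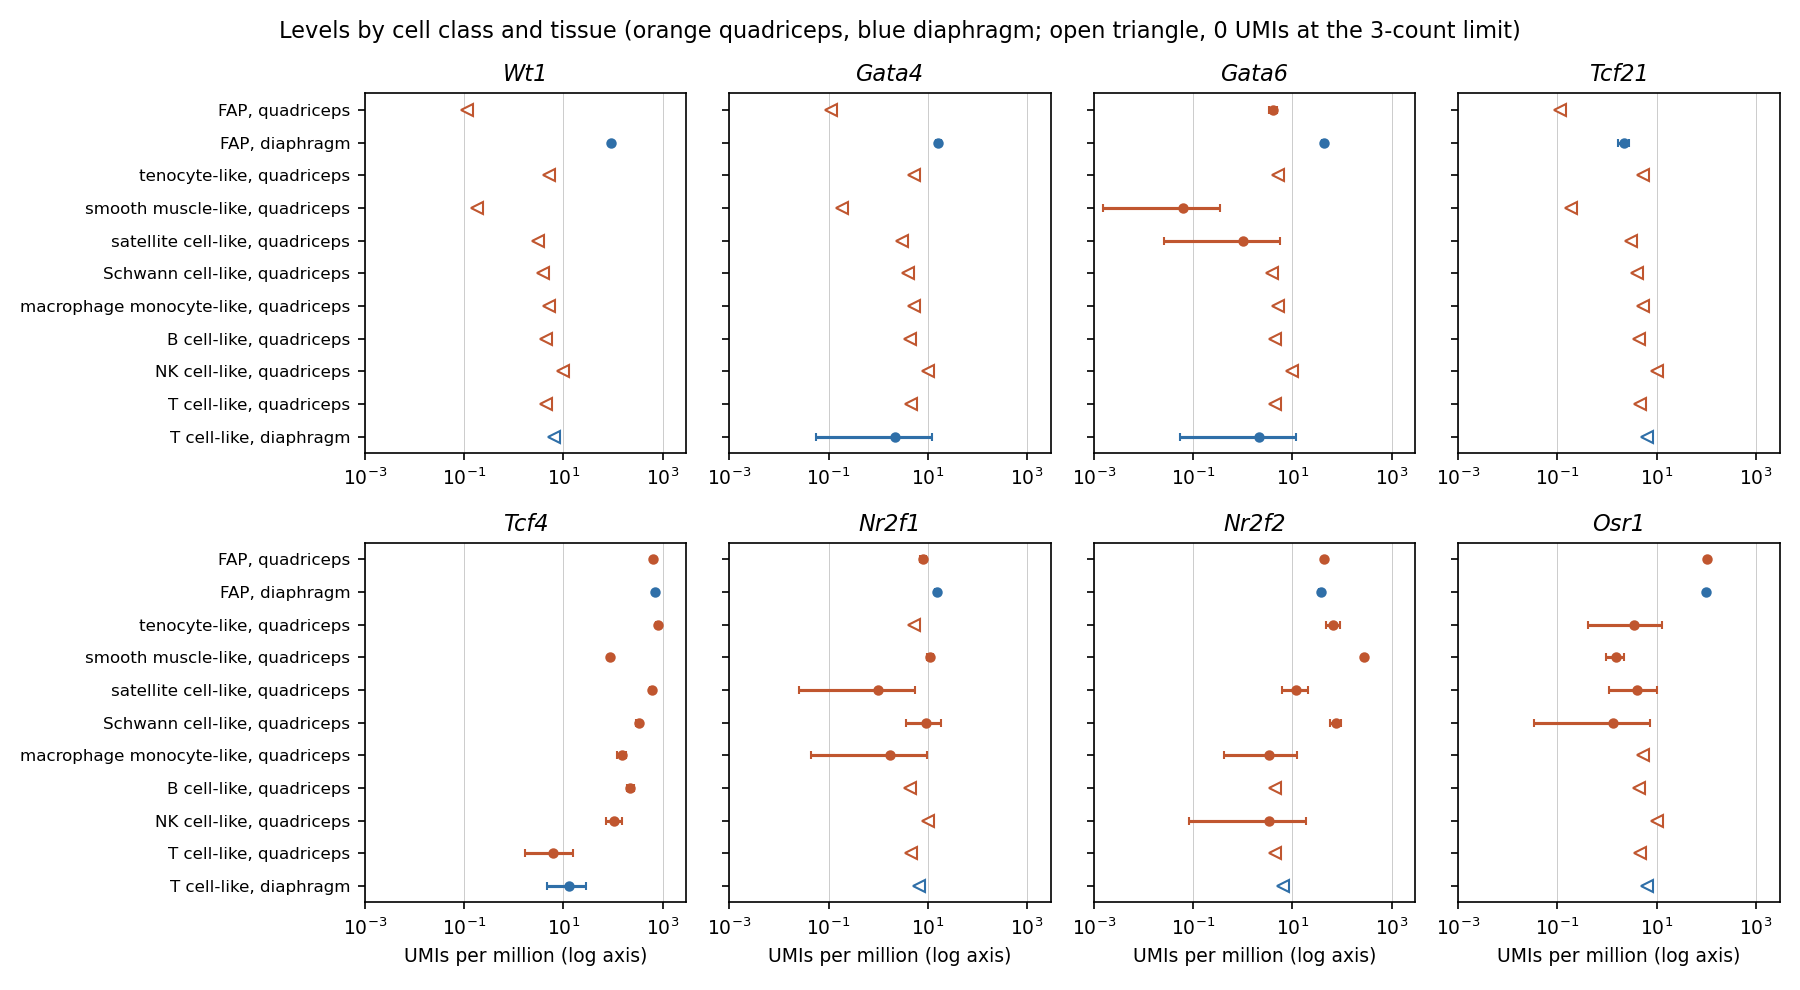
Level of each of the 8 genes in CPM, on a log axis, in the 11 combinations of class and tissue with at least 50 barcodes; orange is quadriceps, blue is diaphragm, bars are 95% Poisson intervals and open triangles mark 0 UMIs at the limit that 3 counts allow. Unnamed clusters and FAP-like barcodes outside the gate are left out. Among the combinations shown Wt1 appears in diaphragm FAPs alone, Osr1 is high in FAPs of both tissues, and Nr2f2 peaks at 279 CPM in smooth muscle-like cells.

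By counts at the 2-fold limit, quadriceps FAPs were above each of the 4 immune classes (T, B and NK cell-like, and macrophage monocyte-like) in 3 of 3 members tested (Tcf4, Nr2f2 and Osr1). Of all genes, 39.7%, 36.8%, 31.9% and 32.2% passed the same limit in these comparisons. Nr2f2 and Osr1 reached the 10 CPM minimum there in FAPs alone. Against satellite cell-like cells 2 of 3 passed (20.5% of all genes), and against tenocyte-like (14.1%) and Schwann cell-like cells (19.1%) 1 of 3 did. In the other direction 0 of 3 members were 2-fold higher in tenocyte-like cells, where 7.18% of all genes were. Against smooth muscle-like cells Tcf4 and Osr1 were higher in FAPs, 2 of 4 tested against 27.7% of all genes, and Nr2f2 was higher in smooth muscle, 1 of 4 against 12.2%. Diaphragm FAPs were above T cell-like cells in 7 of 7 members tested, where 34.1% of all genes were. Only Tcf4 reached the 10 CPM minimum in T cell-like cells, so the other members entered this count through FAPs alone. The intervals of the ratio began under 2, at 1.35 for Gata4 and 1.89 for Nr2f1.

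The third comparison asked whether the factors are uniform over FAPs. Gated cells of both libraries were clustered together without the 8 genes and their partner lists, which gave 9 groups, called here by their leading genes. In diaphragm Wt1 varied 8.44-fold over groups and Gata4 little, and both were at 0 UMIs in every group of quadriceps FAPs. Wt1 had 0 UMIs in each of the 8 quadriceps groups with at least 50 cells and in the 44 cells of the ninth.

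In diaphragm, Wt1 ranged from 25.2 CPM (21.4 to 29.6) in the Hsd11b1, Cxcl14 and Mme group to 213 CPM (199.7 to 226) in the Slpi, Gm12840 and Has1 group, a ratio of 8.44 (7.11 to 10.1). The Thbs4, Fmod and C1qtnf3 group, led by genes of tendon and its matrix, followed at 118 CPM (110 to 126). Between these lay the Stmn4 group (62.8 CPM, 54.9 to 71.5), the Ptn group (55.6 CPM, 42.0 to 72.2) and the C4b group (54.3 CPM, 47.1 to 62.3), whose intervals overlapped. After thinning, 22.7% of the cells in the Slpi group and 2.28% in the Hsd11b1 group had a Wt1 UMI.

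Gata6 followed a like order in diaphragm, from 14.3 CPM (11.4 to 17.6) in the Hsd11b1 group to 62.8 CPM (56.9 to 69.2) in the Thbs4 group and 59.7 CPM (52.9 to 67.2) in the Slpi group. In quadriceps it was lowest in the same Hsd11b1 group among those with a UMI, at 0.192 CPM from 1 UMI, and among groups with at least 50 cells highest in the C4b group (10.6 CPM, 7.44 to 14.6). The 44 quadriceps cells of the Slpi group had 7 Gata6 UMIs (11.9 CPM, 4.803 to 24.6). Gata4 showed no such range: its 6 diaphragm groups lay between 13.5 and 18.9 CPM, a ratio of 1.40 (0.996 to 1.99) between the highest and the lowest. Tcf21 had 28 of its 56 UMIs in the Slpi group (6.02 CPM, 3.998 to 8.69) and 18 in the Thbs4 group (2.75 CPM, 1.63 to 4.35).

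The Thbs4 and Slpi groups held 493 and 335 diaphragm cells but 71 and 44 quadriceps cells, so the mix of groups differed between the libraries. The 7 tenocyte markers summed to 559 CPM in quadriceps and 1693 CPM in diaphragm FAPs, with none at 0 in either. Thbs4 alone was at 254 and 1537 CPM, so the diaphragm sum is mostly this gene. Scx went the other way, from 7.98 to 0.501 CPM, and Mkx rose from 1.24 to 2.81 CPM. The part of these markers in the results was not tested. The tissue differences were also present within groups. In the 5 groups with at least 50 cells in each tissue, Wt1, Gata4 and Gata6 were each at least 2-fold higher in diaphragm in 5 of 5. Within the C4b group, with 328 and 337 cells, Gata6 differed least, from 10.6 to 44.3 CPM, a ratio of 4.19. Nr2f1 was higher in diaphragm in 5 of 5 groups and at least 2-fold in 2, while Tcf4, Nr2f2 and Osr1 reached 2-fold in none.

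Osr1, Nr2f2 and Tcf4 varied over groups in quadriceps. Among groups with at least 50 cells Osr1 was highest in the Dmkn, Sbsn and Krtdap group, at 218 CPM (201 to 236), a group of 212 quadriceps and 8 diaphragm cells, and lowest in the Apod, Angptl7 and Spp1 group, at 16.4 CPM (7.08 to 32.3). In that Apod group Nr2f2 (193 CPM, 156 to 236) and Tcf4 (1223 CPM, 1127 to 1325) had their highest values in quadriceps. The group led by the smooth muscle genes Tagln, Acta2 and Myh11 held 55 quadriceps and 0 diaphragm cells, all with at least 3 smooth muscle markers, and there Nr2f2 was at 185 CPM (162 to 209), with an interval that overlapped that of the Apod group. Tcf4 was low in the Tagln group (347 CPM, 316 to 380) and in the Dmkn group (391 CPM, 368 to 415).

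**Figure D3:**
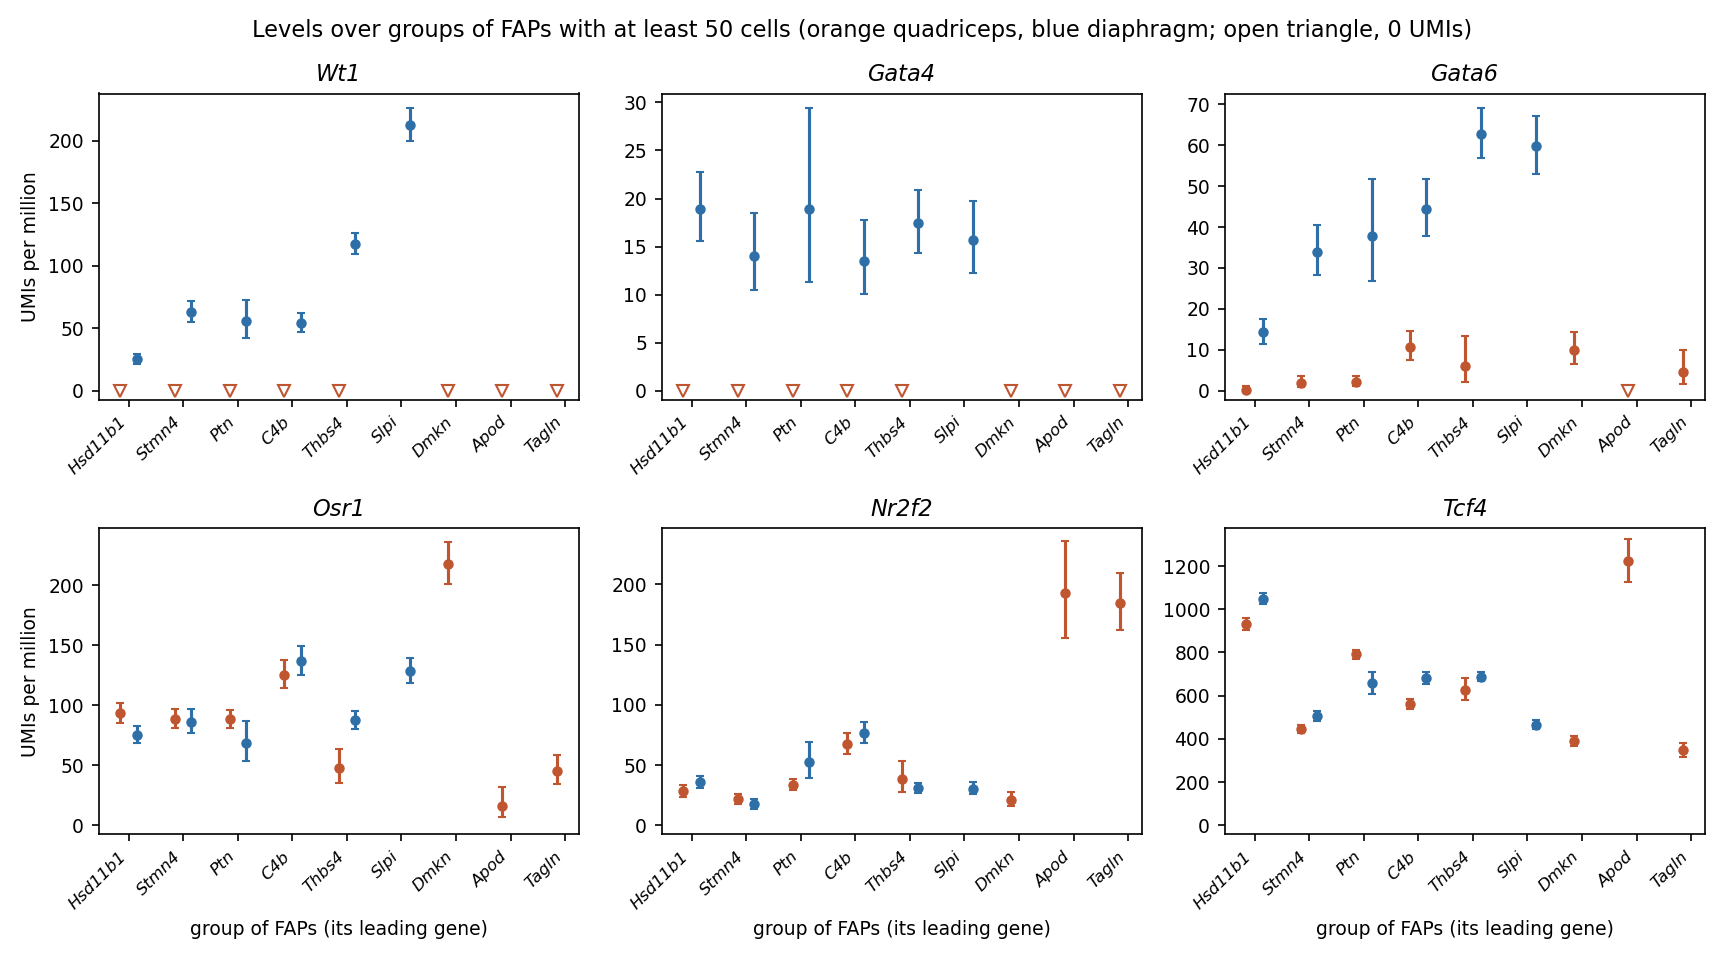
Levels in CPM of 6 of the genes over 9 groups of FAPs, each named by its leading gene, for groups with at least 50 cells in the tissue; orange is quadriceps, blue is diaphragm, bars are 95% Poisson intervals and open triangles mark 0 UMIs. Wt1 ranges from 25.2 to 213 CPM over diaphragm groups and is at 0 in quadriceps groups, Gata4 stays between 13.5 and 18.9 CPM in diaphragm, and Osr1 peaks in the Dmkn group of quadriceps.

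Co-detection in single cells was read in 1969 diaphragm FAPs thinned to 5000 UMIs, with 41 shallower cells left out. Of Wt1, Gata4 and Gata6, 56.6% of cells showed none, 34.4% showed 1, 8.58% showed 2 and 0.457% (9 cells) showed all 3. Gata6 was seen in 23.0% (19.5 to 26.8) of the 543 cells with a Wt1 UMI and in 14.8% (13.0 to 16.7) of the 1426 without. Within each of the 6 groups of FAPs with at least 50 such cells, the intervals for cells with and without a Wt1 UMI overlapped, and the share was higher in cells with Wt1 in 3 of 6. In the Slpi group it was 28.0% (21.3 to 35.6) against 19.5% (13.8 to 26.3), and in the Hsd11b1 group 4.88% (0.596 to 16.5) against 6.62% (4.48 to 9.37).

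Gata4 was seen equally often with and without Wt1, in 8.29% (6.11 to 10.9) and 8.27% (6.90 to 9.83) of cells. It was also alike with and without Gata6, in 7.74% (5.12 to 11.1) and 8.39% (7.09 to 9.84). Osr1 was seen in 41.7% (36.3 to 47.1) of cells with a Gata6 UMI and in 33.0% (30.7 to 35.3) of those without, and in 42.7% (36.9 to 48.5) of cells with an Nr2f2 UMI against 33.1% (30.8 to 35.4) without. These shares describe sparse counts in cells of 1 library.

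**Figure D4:**
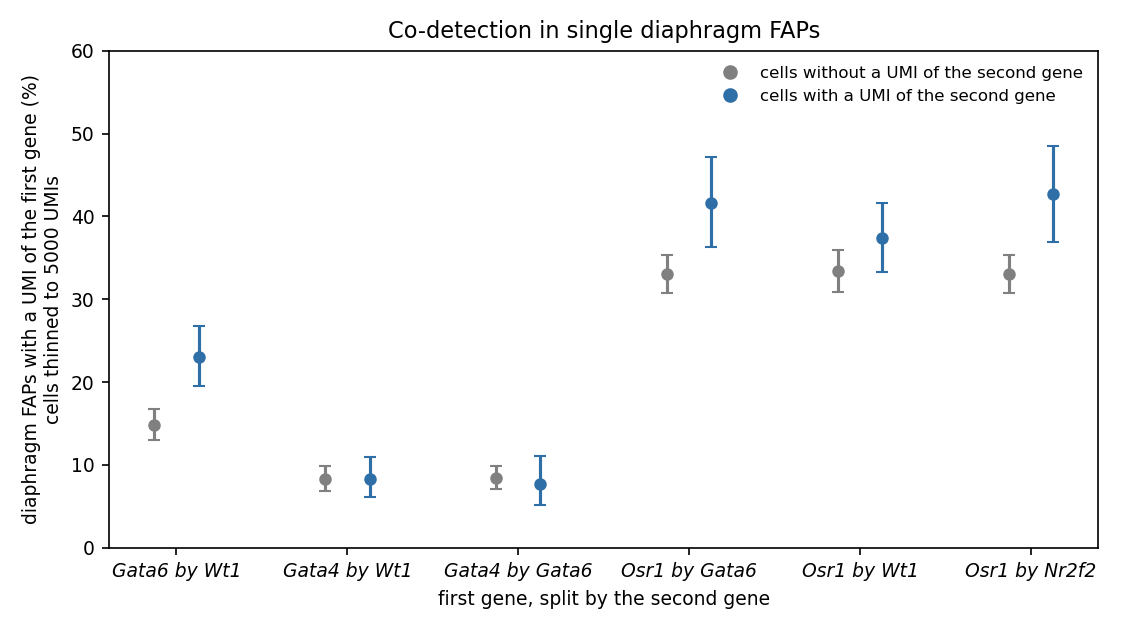
Share of 1969 diaphragm FAPs, in percent after thinning to 5000 UMIs, with a UMI of a first gene, in cells with (blue) and without (grey) a UMI of a second gene; bars are 95% Clopper-Pearson intervals. Gata6 is seen more often in cells with Wt1 (23.0% against 14.8%), and Gata4 is not (8.29% against 8.27%).

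Genes related to the 8 factors were read from 5 lists of 58 genes in all: paralogues and cofactors, E protein and basic helix-loop-helix partners, the Wnt effectors of the TCF and LEF family, mesenchyme transcription factors, and genes of diaphragm hernia and retinoid signalling. Of the 34 that reached 10 CPM in either tissue, 3 were at least 2-fold higher in diaphragm FAPs, 9 in quadriceps FAPs and 22 in neither, beside 2.75% and 3.46% of all genes. Several of those called, among them Zfpm2, Osr2, Tcf15 and Robo1, reached 10 CPM only in the tissue where they were higher. Their median log2 difference was -0.08, against -0.11 for all genes tested.

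Among paralogues and cofactors, 1 of 3 tested was higher in diaphragm and 1 in quadriceps. Zfpm2, the cofactor FOG2 that binds GATA4 and whose loss also gives diaphragm defects, rose from 8.21 to 21.1 CPM, a ratio of 2.58 (2.20 to 3.03). Osr2, the relative of Osr1, went the other way, from 30.2 CPM in quadriceps to 8.86 CPM in diaphragm, a ratio of 0.293 (0.252 to 0.340), while Nr2f6 was at 51.7 and 45.5 CPM. Other GATA genes were near 0: Gata1 had no UMI in FAPs, and Gata2, Gata3 and Gata5 had at most 3 in either tissue.

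Among partners of Tcf4 and Tcf21, 1 of 9 tested was higher in each tissue. Id3, an inhibitor that binds E proteins, rose from 243 to 641 CPM, a ratio of 2.64 (2.57 to 2.72), and Tcf15 went from 10.9 to 3.43 CPM, a ratio of 0.315 (0.246 to 0.401). The other E proteins, Tcf3 and Tcf12, had ratios of 0.910 and 0.677, and Id1, Id2, Twist1, Twist2 and Msc had ratios from 1.24 to 1.65. Hand2, a factor of mesoderm that was under the minimum and is named after its values were seen, had 0 UMIs in quadriceps and 28 in diaphragm FAPs. Of the Wnt effectors, Tcf7l2 (above) and Tcf7l1 (ratio 1.01, 0.934 to 1.08) were tested and 0 of 2 passed.

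The mesenchyme transcription factors held most of the genes higher in quadriceps, 6 of 10 tested, beside 3.46% of all genes. In this list 1 was higher in diaphragm, and the median log2 difference was -1.59. Of the 6, only Meox2 reached 10 CPM in both tissues, so the others entered the count through quadriceps alone. Others of the 18 genes in this list lay under the minimum, and their differences went both ways. Shox2, a limb skeletal factor, was at 85.1 CPM in quadriceps and 2.39 CPM in diaphragm FAPs, a ratio of 0.0281 (0.0215 to 0.0361). The T-box factors Tbx4 (10.1 to 0.270 CPM), Tbx5 (24.2 to 2.62 CPM), Tbx18 (24.7 to 2.77 CPM) and Tbx3 (16.1 to 5.78 CPM) were lower in diaphragm, and so was Meox2 (211 to 58.5 CPM), a muscle patterning homeobox gene. Foxc1, a forkhead factor of mesenchyme, rose from 11.2 to 33.6 CPM, a ratio of 3.01 (2.63 to 3.44). Prrx1 (353 and 308 CPM), Prrx2 (83.4 and 57.0 CPM) and Meox1 (112 and 186 CPM) passed in neither direction.

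Genes linked to diaphragm hernia or to retinoid signalling were mostly alike, with 9 of 10 tested in neither direction. This was near the share over all genes tested, 8185 of 8727. Others of the 17 genes in this list lay under the minimum. Among them, named after their values were seen, Myrf had 4 UMIs in quadriceps and 58 in diaphragm FAPs, and Frem1 had 34 and 9. Robo1, a receptor of Slit ligands, went from 37.1 to 7.36 CPM, a ratio of 0.198 (0.169 to 0.232), and its ligand Slit3 from 153 to 104 CPM. The retinoic acid synthase Aldh1a2 (26.2 and 38.6 CPM) and the receptors Rara (ratio 0.954) and Rxra (ratio 0.939) stayed under 2-fold, as did Gpc3, Lox, Hlx, Efnb1 and Fgfrl1 with ratios from 0.816 to 1.38.

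**Figure D5:**
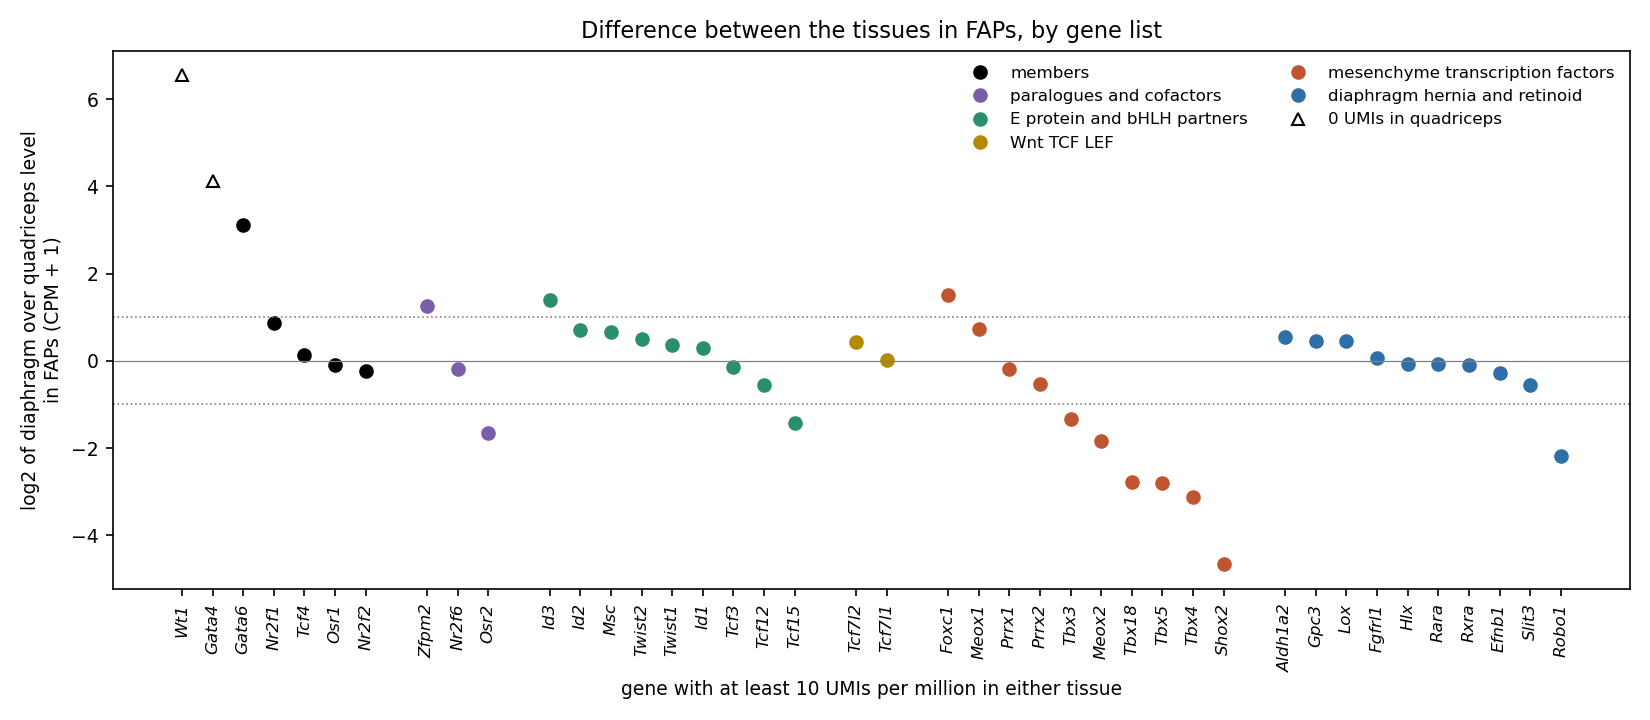
Log2 of the diaphragm over the quadriceps level in FAPs, with 1 CPM added, for the 7 listed factors (black) and the 34 genes of 5 related lists (colours) that reached 10 CPM in either tissue; dotted lines mark 2-fold and open triangles genes with 0 UMIs in quadriceps, whose height depends on the CPM added. Wt1, Gata4 and Gata6 are the highest points, Shox2 is the lowest, and 22 of the 34 related genes lie between the dotted lines.

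Genes with the most similar pattern were sought over the 11 combinations of class and tissue with at least 50 barcodes, by Pearson's r of log2(CPM + 1) among 12123 genes. Osr1 was most like Calml4 (r = 0.998), Wnt5a (0.983) and Il17d (0.980), and Nr2f2 most like Btbd3 (0.985), Map1lc3a (0.982) and Oxct1 (0.975). Gata6 was most like Has1 (0.979), Gm3336 (0.962) and Plcxd3 (0.949). It had UMIs in 5 of the 11 combinations, and those outside FAPs held only 1 UMI each. The values for Gata6 thus rest mainly on FAPs. Has1, a hyaluronan synthase, was at 13.4 CPM in quadriceps and 152 CPM in diaphragm FAPs.

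For Wt1 the nearest were Col6a5 (0.957), Gata4 (0.923) and Gm3336 (0.895), and for Gata4 they were Gm3336 (0.971), Il6 (0.923) and Wt1. Wt1 and Tcf21 had UMIs in 1 of the 11 combinations, diaphragm FAPs, and Gata4 in 2, so these values rest on a single point, and for Tcf21 with Wt1, Col6a5 and Gata4 they carry nothing more. Col6a5, a collagen VI chain, was at 2.90 CPM in quadriceps and 96.4 CPM in diaphragm FAPs. Tcf4 was most like Zdhhc16 (0.960), Bhlhe41 (0.950) and Gtf3c4 (0.948), and Nr2f1 most like Pi15 (0.959), Lgi2 (0.921) and Zadh2 (0.920). The combinations share their 2 libraries, and 9 of the 11 come from quadriceps.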

How the data were processed

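Raw UMI counts per gene and cell barcode were deposited by the authors, who made them with Cell Ranger 3.0.0 from reads aligned to GRCm38 (mm10); the submitters' notes also name Seurat. Cells of several muscles were pooled before encapsulation, and the annotation release is not given in the sources used here. The 8 genes, the related lists and the FAP gate were chosen with earlier results of these data known.

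Here UMIs were summed per class and tissue and scaled to 1000000 (CPM), with 3 counts as the limit for a count of 0, exact Poisson intervals for levels, exact binomial intervals for ratios and Clopper-Pearson intervals for shares; they cover counting error only. No mitochondrial limit, doublet removal or minimum depth applied to FAPs. A difference between tissues or classes was called at 2-fold, with 1 CPM added, for genes that reached 10 CPM in either group. The genes named by rule are the 8 members and genes of the related lists with at least 10 CPM in FAPs of either tissue. The rule takes the 3 genes most like each member over units of at least 50 barcodes, and 3 leading genes per group of FAPs. Wt1os, Gata1, Gata2, Gata3, Gata5, Hand2, Scx, Mkx, Myrf and Frem1 fall outside this rule. A gene's 3' tags are 1 per molecule, so levels are not scaled by length.

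Barcodes with at least 1000 UMIs were clustered jointly (scanpy 1.11.5, Leiden 0.10.2, 2000 variable genes scaled within library, 20 components, 20 neighbours, resolution 1; FAPs alone with 10 components and resolution 0.5). A cluster was named "-like" when at least 3 markers of a type were in 25% of its cells and at 4-fold the median cluster, no other type had more markers among its 10 leading genes, and, for types other than FAPs, a marker was among the first 20. These naming rules were set after the clusters were seen. Clusters that failed stayed unnamed, among them a diaphragm cluster with FAP and tendon genes (550 of its 580 barcodes pass the gate), mitochondrial-rich clusters and diaphragm smooth muscle cells. The fold and interval steps were tested on simulated counts. Promoter bases came from RefSeq. In the related lists 1 gene is not reported here, and the lists' counts and medians leave it out.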

Additional observations from a re-analysis of the deposited data

How the results depend on the processing

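With 1 library per tissue, no replicate could be left out and no test was made, and 15 alternatives were computed, 13 planned and 2 (without gated cells that hold at least 3 mesothelial or at least 3 smooth muscle markers) added after seeing the data. Wt1, Gata4 and Gata6 were at least 2-fold higher in diaphragm FAPs in 14 of the 15, and Wt1 had 0 UMIs in quadriceps FAPs in each. The exception was a minimum of 50 CPM, which only Wt1 reached, so that 1 member passed and 222 of all genes did. With no minimum level 1058 genes passed, 4 members among them, Tcf21 being the one added. Scaling by the median of ratios moved the median of all genes from -0.11 to 0.00 and gave 276 genes higher in diaphragm and 266 in quadriceps, against 240 and 302. With at most 5% mitochondrial UMIs, 5 members in place of 2 were highest in quadriceps FAPs, because only 2 other classes kept 50 barcodes, and in diaphragm none did, so no value is given there. Fitted log2 differences of Wt1 (4.29 to 9.86) and Gata4 (2.10 to 7.36) depend on the value added, Gata6 ranged from 2.40 to 3.37, Nr2f1 from 0.54 to 0.97 and Nr2f2 from -0.43 to 0.20. Scrublet called 3 diaphragm barcodes (0.120%), so doublets were hardly tested there. No paired analysis was possible because each tissue has 1 library.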
